A study of Mus musculus with 16 samples.

Results

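Endothelial cells of mouse embryos with 1 copy of the Notch1 vg allele beside 1 wild-type copy (+/vg) were set against those of wild-type embryos (+/+). The comparison takes 6 of the 16 libraries of the series, 3 labelled +/vg and 3 labelled wild type, chosen by their genotype labels alone. Cells were sorted by flow cytometry for CD31, a junction protein of endothelial cells that platelets and some blood cells also carry, from whole embryos at embryonic day 9.5. The vg allele encodes a glycine in place of a valine of the receptor (V1744G), and the labels describe its released fragment as less stable and endothelial development as normal in +/vg embryos. The wild-type group is spelled in 2 ways in the labels, which were read as 1 genotype. The series also holds embryos with 1 null allele (+/-, 3 libraries), with 1 allele called 12 that carries the Notch2 intracellular domain (+/12, 3 libraries), and with no wild-type Notch1 allele (12/-, 3 libraries, and 12/vg, 1 library). The vg allele is present in every cell of the embryo, not in the endothelium alone, and the sources used here do not say whether a library came from 1 embryo or from several. The p-values given here therefore rest on the spread among libraries alone, and that spread may be technical.

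Notch1 is a cell surface receptor that is cut at successive sites when a ligand on a neighbouring cell pulls on it. The last cut, by gamma-secretase inside the membrane, frees the intracellular domain, which enters the nucleus, joins the DNA-binding protein Rbpj and switches on genes of the Hes and Hey families. In the early vasculature this pathway is needed for arterial identity, for limiting sprouts and for the heart cushions, and the freed domain is short-lived because its starting residue and its tail steer it to degradation. The question of the comparison is whether a single allele with a less stable domain leaves a mark on endothelial transcripts.

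The changed codon lies where gamma-secretase cuts. It is codon 1744, in exon 28 of 34 of Notch1, at chr2:26465472-26465474 on the minus strand of GRCm38 in the GENCODE M21 annotation. The reference coding sequence of chr2:26465427-26465519 is shown because it is the site of the allele, with the valine codon that the label names in capitals and 15 codons on either side.
Notch1 codon 1744: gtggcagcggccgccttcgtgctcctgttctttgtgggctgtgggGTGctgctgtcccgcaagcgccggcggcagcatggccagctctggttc
The run of hydrophobic codons before it belongs to the membrane-spanning segment, and the basic codons after it lie on the inner face. The allele's own base was not read, because a gene total does not show a single base.

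No gene passed the test between +/vg and +/+ endothelial cells. Values are FPKM (sequenced fragments relative to transcript length and to library depth) divided by a scale factor for each library, called scaled FPKM. Fold changes are differences of mean log2(scaled FPKM + 1), +/vg minus +/+, with their standard error (SE). Of 10550 genes tested with limma, 0 were called higher and 0 lower at an adjusted p under 0.05, a share of 0 percent in either direction. The lowest adjusted p was 0.0987, shared by 7 genes. At an unadjusted p under 0.05, 463 genes were higher (4.39 percent of all genes tested) and 330 lower (3.13 percent). Genes whose 3 +/vg libraries did not overlap the 3 +/+ libraries numbered 770 higher (7.3 percent) and 663 lower (6.28 percent). The median log2 fold over all genes was 0.01, and 5426 genes (51.4 percent) had a positive fold. The 95% interval of the fold had a median half-width of 0.42, so 9140 genes (86.6 percent) had an interval wholly within a 2-fold change in either direction, and 3631 (34.4 percent) one within 0.5 on the log2 scale. These intervals bound the single genes below, and a p that missed the threshold does not show that a gene was alike in the groups.

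The aligned sequence behind each library was 1.499, 1.80 and 1.61 gigabases in the +/vg libraries and 1.73, 1.72 and 1.65 gigabases in the +/+ libraries. Library numbers carried by the deposited tables were high for +/vg replicates 1 and 2 and for all +/+ libraries, and low for +/vg replicate 3, and the labels name no batch. The male genes and Xist, the RNA that coats the inactive X chromosome of females, set +/vg replicate 3 apart. Xist was 14.4, 27.5 and 0.0441 scaled FPKM in the +/vg libraries and 12.5, 13.7 and 18.2 in the +/+ libraries. The Y-linked gene Eif2s3y was 4.69, 2.52 and 11.8 scaled FPKM in the +/vg libraries and 4.49, 3.63 and 3.38 in the +/+ libraries, so every library but +/vg replicate 3 held transcripts of both kinds. Counts for the immediate-early and stress genes are also given without this library.

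The endothelial markers had close sums. The 30 pan-endothelial genes together had 1904, 1972 and 2003 scaled FPKM in the +/vg libraries and 1931, 1937 and 1971 in the +/+ libraries. Cdh5, the endothelial cadherin, had 163, 161 and 174 scaled FPKM in the +/vg libraries and 167, 165 and 154 in the +/+ libraries. Pecam1, the gene of CD31, had 46.1, 49.9 and 65.0 scaled FPKM in the +/vg libraries and 49.8, 47.5 and 50.8 in the +/+ libraries. The labelled cell type was therefore present in all 6 libraries.

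Notch1 RNA itself differed by less than the spread between libraries. Notch1 (chr2:26313422-26359342, mm9) had 23.2, 20.6 and 20.4 scaled FPKM in the +/vg libraries and 23.3, 20.7 and 17.4 in the +/+ libraries. The groups overlapped throughout, with means of 21.4 ± 1.57 in +/vg and 20.5 ± 2.92 in +/+ (SD, n = 3 each). The log2 fold was 0.07 ± 0.15 (SE, limma adjusted p = 0.956), with a 95% interval from -0.24 to 0.38. A two-sided exact permutation test of the 6 values gave p = 0.9, where the smallest value that 20 arrangements allow is 0.1. Without +/+ replicate 3 the log2 fold was -0.036.

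The other receptors were also within the spread. Notch2 had 2.91, 2.10 and 2.26 scaled FPKM in the +/vg libraries and 2.67, 3.31 and 2.89 in the +/+ libraries, a log2 fold of -0.21 ± 0.15. Notch4, the receptor most restricted to endothelium, had 9.05, 10.1 and 10.3 scaled FPKM in the +/vg libraries and 7.98, 11.1 and 8.93 in the +/+ libraries, a log2 fold of 0.07 ± 0.21. Notch3, better known from vessel wall cells, had a log2 fold of -0.07 ± 0.20. None of the 4 receptors reached an unadjusted p under 0.05.

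Of the 5 ligand genes 4 were tested, since Dll3 was below the filter. Dll4, the arterial ligand that restrains sprouting, had 8.24, 8.76 and 5.70 scaled FPKM in the +/vg libraries and 9.83, 6.40 and 10.4 in the +/+ libraries. Its log2 fold was -0.20 ± 0.27 and the groups overlapped. Jag1 had 1.99, 2.83 and 2.91 scaled FPKM in +/vg libraries and 3.04, 2.78 and 3.18 in +/+ libraries, a log2 fold of -0.17 ± 0.18. Jag2 and Dll1 had log2 folds of 0.21 ± 0.25 and 0.12 ± 0.28. With the library number range as a covariate the fold of Jag2 was -0.00127, and without +/vg replicate 1 the fold of Dll1 was -0.023.

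Among the genes that prepare and cut the receptor, 1 of the 8 cleavage enzymes tested was lower at an unadjusted p under 0.05 (3.13 percent of all genes were). Aph1a, a subunit of gamma-secretase, had 5.22, 6.18 and 4.34 scaled FPKM in the +/vg libraries and 7.91, 8.61 and 5.55 in the +/+ libraries. The groups overlapped in 1 pair of libraries, and the log2 fold was -0.41 ± 0.15 (limma adjusted p = 0.561). The other 7 cleavage enzymes tested, including nicastrin (Ncstn), Adam10 and Adam17, had log2 folds between -0.20 and 0.21. Of the 5 glycosyltransferases that modify Notch, Rfng had the largest fold, at 1.58, 3.31 and 2.90 scaled FPKM in the +/vg libraries and 0.985, 1.35 and 2.27 in the +/+ libraries (log2 fold 0.50 ± 0.25, limma adjusted p = 0.715). None of these 5 reached an unadjusted p under 0.05.

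The nuclear partners of the intracellular domain leaned one way by small amounts. Rbpj had 5.77, 6.62 and 6.32 scaled FPKM in the +/vg libraries and 5.13, 7.90 and 7.84 in the +/+ libraries, a log2 fold of -0.12 ± 0.16. The other 10 of the 11 tested cofactors, among them the coactivators Maml1, Maml2 and Maml3 and the acetyltransferases Ep300 and Crebbp, had positive folds. The list median was 0.13, against 0.01 over all genes tested, and its largest fold was that of Maml3, at 0.33 ± 0.21. None of the 11 reached an unadjusted p under 0.05. Of the 9 tested genes that degrade or inhibit the domain, 4 had a positive fold and 5 a negative one, with 0 at an unadjusted p under 0.05. Fbxw7, the ubiquitin ligase subunit that recognises the domain's tail, had 4.56, 4.66 and 3.70 scaled FPKM in the +/vg libraries and 4.33, 3.28 and 3.56 in the +/+ libraries. Its fold was 0.17 ± 0.21.

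The target genes of the pathway went in both directions. Hey1, a repressor that Notch switches on in arterial cells, had 48.3, 48.7 and 28.1 scaled FPKM in the +/vg libraries and 52.6, 72.1 and 61.3 in the +/+ libraries. Every +/vg library lay below every +/+ library, with a log2 fold of -0.59 ± 0.32 (limma adjusted p = 0.729). Hes1, the most widely used target, had 43.2, 55.9 and 34.6 scaled FPKM in the +/vg libraries and 25.7, 38.3 and 37.5 in the +/+ libraries. The groups overlapped, and the log2 fold was 0.38 ± 0.27. Hey2 was low, at 2.17, 1.39 and 0.947 scaled FPKM in the +/vg libraries and 1.67, 1.57 and 1.14 in the +/+ libraries, and its fold of 0.00 ± 0.22 had either sign over the alternatives run. Nrarp, a target that feeds back on the complex, had 6.71, 6.75 and 8.62 scaled FPKM in the +/vg libraries and 7.66, 8.04 and 8.21 in the +/+ libraries (log2 fold -0.11 ± 0.18). Efnb2, the arterial ephrin, had 47.1, 41.1 and 26.7 scaled FPKM in the +/vg libraries and 29.1, 29.7 and 33.6 in the +/+ libraries. Its 2 highest values were those of +/vg replicates 1 and 2 and its lowest was that of replicate 3, and the log2 fold was 0.27 ± 0.22. Of the 15 targets listed, 11 were tested, since Heyl, Hes5, Hes7 and Dtx1 were below the filter. Of these 11, 6 had a positive fold and 5 a negative one, 0 reached an unadjusted p under 0.05, and the median was 0.00.

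**Figure D1:**
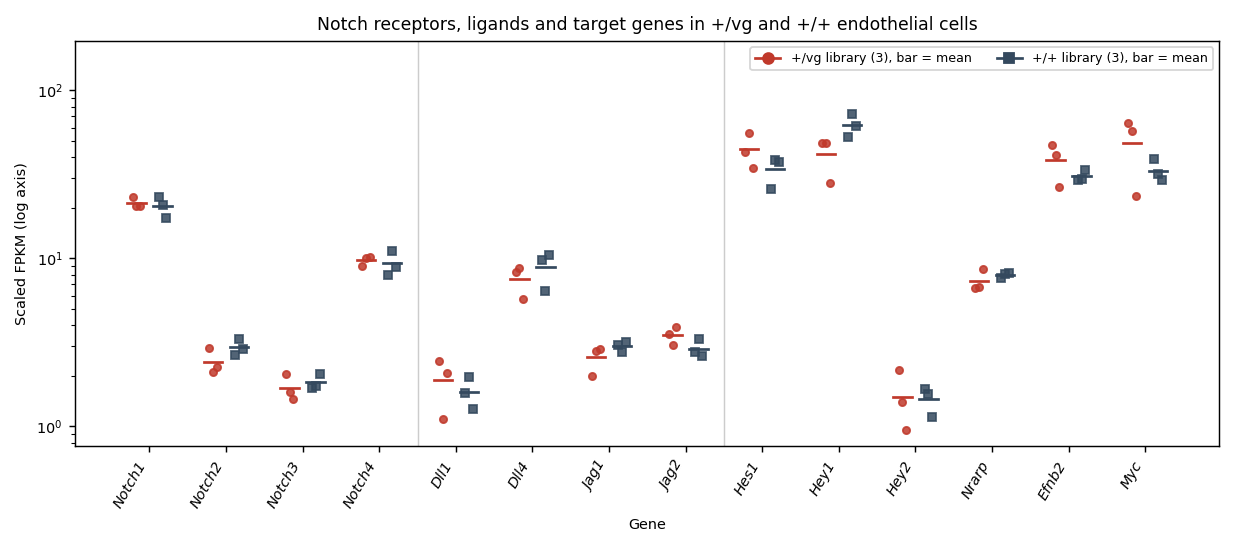
Scaled FPKM (log axis) of 4 Notch receptors, 4 ligands and 6 targets, separated by grey lines, with +/vg libraries (red circles) left of +/+ libraries (dark squares) for each gene and bars at the group means of 3 libraries. For Hey1 all +/vg points lie below all +/+ points, at 28.1 to 48.7 against 52.6 to 72.1; for Notch1 the groups cover 20.4 to 23.2 and 17.4 to 23.3.

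Arterial identity genes had a list median of -0.02 over 16 genes, with 0 at an unadjusted p under 0.05. Next to Hey1, Gja5 was the 1 other member whose libraries did not overlap. That makes 2 of 16 lower without overlap, where 6.28 percent of all genes were. Gja5, the gap junction protein connexin 40 of arterial endothelium, had 31.2, 31.3 and 21.2 scaled FPKM in the +/vg libraries and 39.9, 37.0 and 44.2 in the +/+ libraries, a log2 fold of -0.54 ± 0.25 (limma adjusted p = 0.677). Gja4, the partner connexin 37, had 28.2, 26.2 and 21.03 scaled FPKM in the +/vg libraries and 31.0, 27.4 and 35.7 in the +/+ libraries (log2 fold -0.31 ± 0.29). For Hey1, Gja5 and Gja4 alike, the lowest value was that of +/vg replicate 3. Sox17, an arterial transcription factor, had 15.7, 15.5 and 5.37 scaled FPKM in the +/vg libraries and 10.9, 6.92 and 8.34 in the +/+ libraries, so replicate 3 was again the lowest. The 8 venous and lymphatic genes had a median of 0.00, with 0 at an unadjusted p under 0.05. Nr2f2, the factor that sets venous fate, had 6.47, 5.07 and 6.71 scaled FPKM in +/vg libraries and 6.28, 6.82 and 4.63 in +/+ libraries. The 8 tested VEGF genes and the 16 tip cell genes also had 0 members at an unadjusted p under 0.05.

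At an unadjusted p under 0.05, 2 of the 30 pan-endothelial genes were higher and 1 was lower, shares near those of all genes (4.39 and 3.13 percent), and 29 had a 95% interval within a 2-fold change. Calcrl, the receptor subunit for adrenomedullin, had 23.1, 25.4 and 25.7 scaled FPKM in the +/vg libraries and 34.0, 34.7 and 35.8 in the +/+ libraries. The groups were tight and apart, with a log2 fold of -0.48 ± 0.12 (limma adjusted p = 0.354). Sox18 had 80.3, 108 and 77.2 scaled FPKM in +/vg libraries and 114, 110 and 118 in +/+ libraries, and Plvap, the diaphragm protein of fenestrae, had 85.6, 85.8 and 87.5 against 105, 107 and 99.5. Neither overlapped between the groups, at log2 folds of -0.38 ± 0.25 and -0.26 ± 0.14. The ETS factor Fli1 had 36.9, 35.7 and 34.0 scaled FPKM in the +/vg libraries and 33.2, 28.7 and 24.7 in the +/+ libraries (log2 fold 0.30 ± 0.12, limma adjusted p = 0.598). S1pr1, the receptor for sphingosine 1-phosphate, was the other gene higher at that threshold, with a log2 fold of 0.31 ± 0.14 and overlapping libraries.

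Of 12 endocardial genes tested, 1 was lower at an unadjusted p under 0.05 (3.13 percent of all genes were), and of 13 cushion genes 2 were higher (4.39 percent). Npr3, an endocardial gene for a natriuretic peptide receptor, had 11.4, 9.01 and 8.99 scaled FPKM in the +/vg libraries and 13.7, 14.3 and 14.5 in the +/+ libraries. The libraries did not overlap, and the log2 fold was -0.49 ± 0.15 (limma adjusted p = 0.444). The other 11 endocardial genes, Nfatc1 and Gata4 among them, did not reach that threshold. Has2, which makes the hyaluronan of the cushion matrix, had 3.503, 3.59 and 3.34 scaled FPKM in the +/vg libraries and 2.21, 2.03 and 1.96 in the +/+ libraries (log2 fold 0.55 ± 0.21, limma adjusted p = 0.592). Bmp2, the growth factor that starts cushion formation, had 1.89, 1.77 and 2.38 scaled FPKM in the +/vg libraries and 0.702, 1.44 and 1.11 in the +/+ libraries (log2 fold 0.54 ± 0.25, limma adjusted p = 0.660). The receptor gene Bmpr1a had 3.43, 3.01 and 2.47 scaled FPKM in the +/vg libraries and 4.14, 4.14 and 4.01 in the +/+ libraries (log2 fold -0.37 ± 0.15). Snai2, a Notch target of cushion cells, had 2.50, 1.85 and 2.03 scaled FPKM in the +/vg libraries and 1.71, 4.69 and 3.83 in the +/+ libraries, which overlapped.

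The immediate-early genes had the highest list median, and heat shock and stress genes also had a high one. Immediate-early genes are switched on within minutes by growth factors, stretch or handling of cells, without new protein synthesis, and many encode transcription factors. All 20 were tested and all 20 had a positive fold, with a median of 1.24, against 0.01 over all genes tested. Of the 20, 17 were higher at an unadjusted p under 0.05 (4.39 percent of all genes were), 15 did not overlap between the groups (7.3 percent), and 0 were called. Adjusted p ran from 0.0987 to 0.723.

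The list holds AP-1 subunits and Egr factors, which are transcription factors. Fos had 39.2, 44.0 and 31.4 scaled FPKM in the +/vg libraries and 12.1, 19.4 and 14.7 in the +/+ libraries, a log2 fold of 1.27 ± 0.34 (limma adjusted p = 0.391). Junb had 13.8, 18.1 and 23.0 scaled FPKM in the +/vg libraries and 5.78, 6.78 and 5.10 in the +/+ libraries, a log2 fold of 1.47 ± 0.45. Both genes had all +/vg libraries above all +/+ libraries. Egr1 had 33.1, 39.9 and 40.6 scaled FPKM in the +/vg libraries and 12.6, 20.99 and 12.0 in the +/+ libraries, a log2 fold of 1.30 ± 0.38 (limma adjusted p = 0.408). Egr2 had 4.78, 4.97 and 4.40 scaled FPKM in the +/vg libraries and 1.13, 2.42 and 0.602 in the +/+ libraries (log2 fold 1.33 ± 0.38). Egr3 had the largest fold of the list, 1.70 ± 0.54, and the widest scatter, with 4.39, 0.890 and 6.15 scaled FPKM in +/vg libraries and 0.406, 0.137 and 0.317 in +/+ libraries. Atf3, a stress-induced factor, had 40.9, 36.1 and 29.3 scaled FPKM in the +/vg libraries and 19.7, 12.8 and 12.5 in the +/+ libraries, and the orphan receptor Nr4a1 had 25.9, 21.3 and 40.3 against 10.1, 11.3 and 9.12. Their log2 folds were 1.21 ± 0.34 and 1.39 ± 0.46.

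The genes that end these responses were in the same direction. Zfp36 (chr7:29161803-29164247, mm9), whose protein destabilises cytokine mRNAs, had 57.8, 49.95 and 33.4 scaled FPKM in the +/vg libraries and 15.8, 20.8 and 13.9 in the +/+ libraries (log2 fold 1.41 ± 0.26, limma adjusted p = 0.132). Btg2 (chr1:135971442-135975732, mm9), an antiproliferative gene, had 20.1, 23.8 and 13.3 scaled FPKM in the +/vg libraries and 7.93, 7.04 and 5.35 in the +/+ libraries (log2 fold 1.35 ± 0.22, limma adjusted p = 0.0987). Dusp1 (chr17:26642536-26645417, mm9), a phosphatase of MAP kinases, had 109, 102 and 90.5 scaled FPKM in the +/vg libraries and 52.6, 50.5 and 40.9 in the +/+ libraries (log2 fold 1.05 ± 0.24). In all 3 genes the lowest +/vg library was above the highest +/+ library. Socs3, an inhibitor of cytokine receptors, had 3.36, 3.27 and 5.03 scaled FPKM in the +/vg libraries and 0.934, 1.52 and 2.21 in the +/+ libraries. Nfkbia, the inhibitor of NF-kappaB and not a member of the list, had 8.06, 7.06 and 5.07 scaled FPKM in the +/vg libraries and 1.84, 1.61 and 2.79 in the +/+ libraries (log2 fold 1.33 ± 0.23, limma adjusted p = 0.0987).

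A second pattern ran through the list. For Jun, Klf6, Cyr61 and Ctgf, +/vg replicates 1 and 2 were high and replicate 3 lay near the wild-type range. Jun had 111, 104 and 37.0 scaled FPKM in the +/vg libraries and 38.2, 51.4 and 39.9 in the +/+ libraries, so replicate 3 was below all +/+ libraries. Cyr61, a secreted matrix protein induced by stretch, had 141, 134 and 39.2 scaled FPKM in the +/vg libraries and 34.0, 41.7 and 27.0 in the +/+ libraries. Ctgf, its relative, had 22.5, 21.7 and 6.35 scaled FPKM in the +/vg libraries and 5.66, 4.2 and 6.08 in the +/+ libraries. Klf6 had 86.3, 72.4 and 32.6 scaled FPKM in the +/vg libraries and 33.2, 31.4 and 27.1 in the +/+ libraries. In Fosb, Junb, Egr1, Nr4a1, Klf4, Egr3 and Socs3, the highest +/vg library was replicate 3. Some library is the highest for any gene, and these groupings were made after the values were seen.

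**Figure D2:**
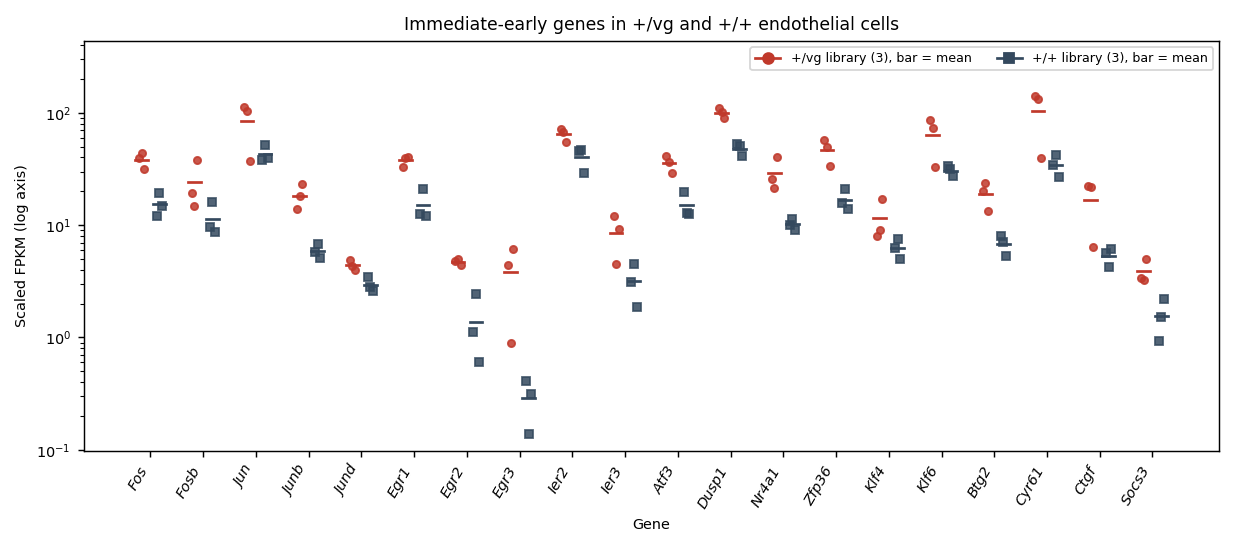
Scaled FPKM (log axis) of the 20 immediate-early genes, with the 3 +/vg libraries (red circles) left of the 3 +/+ libraries (dark squares) for each gene and bars at the group means. The +/vg mean is above the +/+ mean for all 20, and the points do not overlap for 15; in Jun, Klf6, Cyr61 and Ctgf 1 red point sits apart from the other 2, near the dark ones.

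The promoters of 3 of these genes are shown because their libraries did not overlap, a script found a full-length match to a response element in them, and the table lists 1 start for each (Egr2, which also has a match, has 5 listed starts). The sequences are RefSeq promoters on GRCm38.p6, from 250 bases before to 50 after the start of the gene, on the minus strand in all 3, with the motif in capitals. Zfp36 lies at chr7:28379179-28379478 and holds a CArG box, the element of serum response factor. Dusp1 at chr17:26508423-26508722 and Btg2 at chr1:134079106-134079405 hold TGACGTCA, the element of cyclic AMP response factors.
Zfp36: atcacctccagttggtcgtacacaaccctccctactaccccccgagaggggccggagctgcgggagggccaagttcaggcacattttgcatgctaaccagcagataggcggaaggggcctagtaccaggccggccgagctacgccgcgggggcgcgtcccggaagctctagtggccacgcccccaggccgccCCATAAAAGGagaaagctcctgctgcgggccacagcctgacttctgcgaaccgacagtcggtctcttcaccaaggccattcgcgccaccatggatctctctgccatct
Dusp1: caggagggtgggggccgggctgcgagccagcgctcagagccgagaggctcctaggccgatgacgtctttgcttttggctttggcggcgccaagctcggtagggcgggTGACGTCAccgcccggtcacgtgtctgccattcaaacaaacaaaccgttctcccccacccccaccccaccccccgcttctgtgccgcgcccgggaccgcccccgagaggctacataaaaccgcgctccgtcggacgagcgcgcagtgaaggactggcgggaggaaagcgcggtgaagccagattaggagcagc
Btg2: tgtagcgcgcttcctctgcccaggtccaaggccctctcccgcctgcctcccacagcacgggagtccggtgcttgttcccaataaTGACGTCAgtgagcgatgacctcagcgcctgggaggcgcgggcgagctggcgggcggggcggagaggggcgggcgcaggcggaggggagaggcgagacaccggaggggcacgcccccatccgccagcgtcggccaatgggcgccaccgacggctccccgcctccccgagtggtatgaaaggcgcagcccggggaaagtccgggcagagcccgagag
Of the 20 genes 16 had a promoter in the RefSeq table. On both strands the CArG box was found in 2 of the 16 (Egr2 and Zfp36) and in 1.63 percent of all 32851 promoters, and TGACGTCA in 2 of the 16 (Dusp1 and Btg2) and in 1.79 percent of all. A match is a description of these letters and not evidence of binding. Of the 15 Notch targets 9 had a promoter, and TGGGAA, the core that Rbpj binds, was found in 3 (Hes5, Hes7 and Hey2) and in 25.6 percent of all promoters.

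Heat shock and stress genes had a median log2 fold of 0.53, with 12 of 13 positive. Of the 13, 8 were higher at an unadjusted p under 0.05 (4.39 percent of all genes were) and 7 did not overlap (7.3 percent of all genes). Hspb1, a small heat shock protein of the actin skeleton, had 29.7, 30.9 and 5.38 scaled FPKM in the +/vg libraries and 3.40, 5.16 and 4.44 in the +/+ libraries (log2 fold 1.80 ± 0.60, limma adjusted p = 0.479). Hspa1a, an inducible Hsp70 whose near-identical copy Hspa1b makes its estimate uncertain, had 32.5, 33.0 and 7.41 scaled FPKM in the +/vg libraries and 1.05, 12.5 and 4.58 in the +/+ libraries. Among the libraries with high numbers alone, Hspb1 was called, with a log2 fold of 2.56 (limma adjusted p = 0.0135). In Hspb1 and Hspa1a, +/vg replicates 1 and 2 were the highest of the 6 and replicate 3 lay within or next to the +/+ range. Hsp90aa1, the inducible Hsp90, had 217, 226 and 223 scaled FPKM in the +/vg libraries and 145, 178 and 156 in the +/+ libraries (log2 fold 0.48 ± 0.17). Hsph1, a co-chaperone of Hsp70, had 78.7, 74.0 and 50.2 scaled FPKM in the +/vg libraries and 43.1, 48.2 and 41.3 in the +/+ libraries (log2 fold 0.58 ± 0.18). Chac1, a target of the amino acid stress pathway, had 1.63, 2.16 and 3.69 scaled FPKM in the +/vg libraries and 0.264, 0.871 and 0.0547 in the +/+ libraries, with a log2 fold of 1.32 ± 0.33 (limma adjusted p = 0.344). Ddit3 of the same pathway had 12.5, 7.54 and 8.91 scaled FPKM in the +/vg libraries and 4.29, 1.00 and 5.73 in the +/+ libraries. Asns, also of that pathway, had a fold of the other sign, -0.32 ± 0.16. The count of 8 was also 8 without +/vg replicate 3, with a median of 0.67. It was 4 without +/vg replicate 1, 5 without +/vg replicate 2 and 4 without +/+ replicate 1.

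The immediate-early count of 17 lay between 13 and 18 under the alternatives run. It was 14 without +/vg replicate 3. It was 15 among the libraries with high numbers alone, where +/vg replicate 3 is left out, with a median of 1.30, and it was 15 with the number range as a covariate, with a median of 1.10.

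The +/- and +/12 embryos share the wild-type libraries of this comparison, so their values are set side by side. All 3 +/12 libraries have low library numbers and all 3 +/+ libraries high ones, so genotype and number range cannot be told apart between those groups. Of the +/- libraries, replicate 3 has a low number and the highest immediate-early mean of the 3. Against +/+ the immediate-early median was 1.24 in +/vg, 0.22 in +/- and 0.67 in +/12, with 17, 2 and 6 of the 20 higher at an unadjusted p under 0.05. In the +/- comparison 3.66 percent of all genes passed that threshold upwards, and in the +/12 comparison 3.04 percent. The direct difference of +/vg from +/- had a median of 0.94, with 15 of 20 higher at an unadjusted p under 0.05 (4.82 percent of all genes) and 0 called. The direct difference of +/vg from +/12 had a median of 0.57, with 7 of 20 higher (1.31 percent of all genes) and 0 called. Direct differences reuse the +/vg libraries in which these genes were found high, so they are not separate support. The mean log2(scaled FPKM + 1) of the list was 4.68, 4.51 and 4.40 in the +/vg libraries, 3.30, 3.44 and 3.93 in +/-, 4.53, 3.66 and 3.83 in +/12, and 3.39, 3.57 and 3.20 in +/+. In 12/- it was 4.17, 3.51 and 3.63, and in the 1 library of 12/vg, which also carries a vg allele, it was 3.47. The level of +/12 replicate 1 thus lay within the +/vg range, and the 12/vg library lay within the +/+ range. For the stress genes the means were 5.32, 5.30 and 4.84 in +/vg libraries and 4.18, 4.46 and 4.44 in +/+ libraries, while +/-, +/12 and 12/- libraries covered 4.32 to 5.27. Against +/+ the stress median was 0.53 in +/vg, 0.26 in +/- and 0.28 in +/12. At an unadjusted p under 0.05, 8, 0 and 1 of 13 were higher. The direct difference of +/vg from +/- had a stress median of 0.39, with 4 of 13 higher (4.82 percent of all genes). That from +/12 had a stress median of 0.20, with 0 of 13 higher (1.31 percent of all genes).

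**Figure D3:**
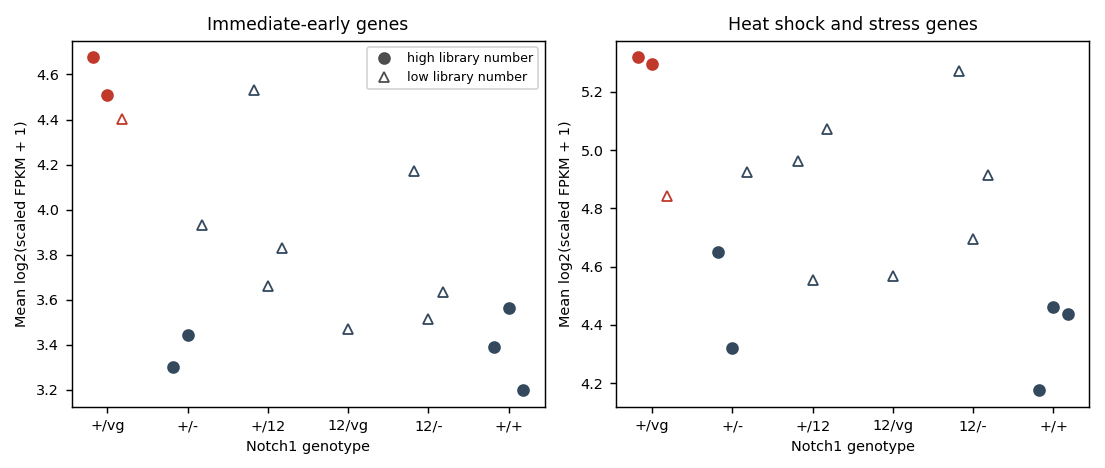
Mean log2(scaled FPKM + 1) of the 20 immediate-early genes (left) and 13 heat shock and stress genes (right) in each of the 16 libraries, by Notch1 genotype, with +/vg in red and filled circles for high and open triangles for low library numbers. The +/vg libraries cover 4.40 to 4.68 on the left panel and the +/+ libraries 3.20 to 3.57, while +/12 replicate 1 reaches 4.53.

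The 10 genes with the smallest p in each direction and non-overlapping libraries, picked whether or not they were in a list, were a mixed group. Btg2 and Zfp36 also belong to the immediate-early list, Hhex to the haemogenic and progenitor list and Slit2 to the guidance list. The haematopoietic and endothelial homeobox gene Hhex (chr19:37509331-37515221, mm9) had 70.2, 70.4 and 62.6 scaled FPKM in the +/vg libraries and 30.3, 36.7 and 38.6 in the +/+ libraries. Its 2 groups were far apart for their spread, with a log2 fold of 0.93 ± 0.19 (limma adjusted p = 0.280). Cyp1a1, a monooxygenase induced through the aryl hydrocarbon receptor, had 4.62, 3.51 and 8.55 scaled FPKM in the +/vg libraries and 0.421, 0.661 and 0.428 in the +/+ libraries (log2 fold 2.06 ± 0.44, adjusted p = 0.312). Hmox1, the haem oxygenase of oxidative stress, had 16.7, 16.3 and 16.8 scaled FPKM in the +/vg libraries and 8.11, 8.96 and 10.3 in the +/+ libraries (log2 fold 0.80 ± 0.17, adjusted p = 0.312). Clstn1, a cadherin-like membrane protein, had 3.09, 2.55 and 2.99 scaled FPKM in the +/vg libraries and 1.38, 1.06 and 0.663 in the +/+ libraries. Arl4a, a small GTPase, had 6.93, 5.36 and 6.18 scaled FPKM in the +/vg libraries and 3.13, 2.60 and 4.42 in the +/+ libraries. Pramef8, whose family has near-identical copies that make its estimate uncertain, had a log2 fold of 0.87 ± 0.13, and Leng1 one of 0.58 ± 0.12. Btg2, Nfkbia and Zfp36, described above, complete the higher 10.

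On the lower side, Ppap2c (chr10:78989174-78996532, mm9), a lipid phosphate phosphatase, had the smallest p of all. It had 6.33, 6.64 and 5.07 scaled FPKM in the +/vg libraries and 15.3, 11.4 and 12.2 in the +/+ libraries, a log2 fold of -0.99 ± 0.14 (limma adjusted p = 0.0987). With array weights Ppap2c was called, as were Pramef8 and Spryd4 (limma adjusted p = 0.0272 for each). Slit2 (chr5:48374394-48697017, mm9), a secreted guidance ligand for Robo receptors, had 1.41, 1.93 and 1.41 scaled FPKM in the +/vg libraries and 3.28, 4.11 and 3.27 in the +/+ libraries (log2 fold -0.82 ± 0.15, limma adjusted p = 0.131). Gngt2, a G protein gamma subunit, had 34.7, 43.3 and 46.0 scaled FPKM in the +/vg libraries and 66.4, 71.4 and 76.6 in the +/+ libraries. All +/vg values of these 3 genes lay well under the +/+ values. Hspa12b, an endothelial member of the Hsp70 family, had 11.2, 9.51 and 12.4 scaled FPKM in the +/vg libraries and 16.8, 19.1 and 16.1 in the +/+ libraries. S100a6, a calcium-binding protein, had 8.62, 16.4 and 11.1 scaled FPKM in the +/vg libraries and 22.9, 30.9 and 25.2 in the +/+ libraries, the largest negative fold of the 10 at -1.10 ± 0.24. Unc5a, a netrin receptor, was at 0.0843, 0.0535 and 0.413 scaled FPKM in the +/vg libraries and 1.41, 1.79 and 1.25 in the +/+ libraries, so its fold rests on low values. Alg8, an enzyme of N-glycan assembly, and Spryd4, Lyrm2 and Ttc15 had log2 folds between -0.78 and -0.54. These 20 genes were picked by their p in this comparison, so the separation of their libraries follows from the choice.

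**Figure D4:**
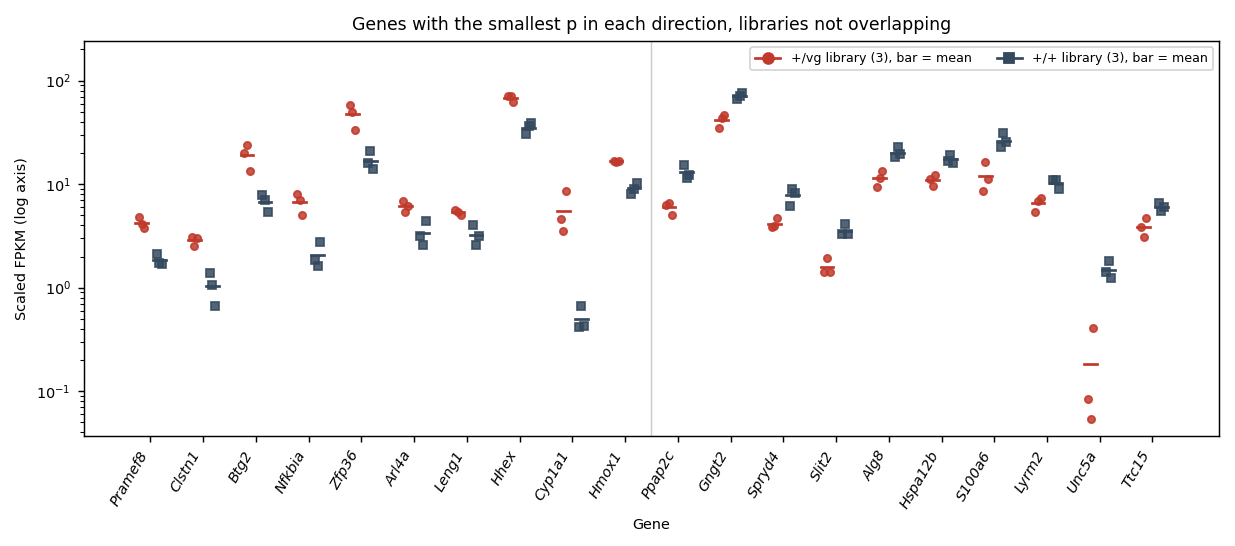
Scaled FPKM (log axis) of the 10 genes with the smallest p and higher +/vg values (left of the grey line) and the 10 with lower +/vg values (right), with +/vg libraries (red circles) left of +/+ libraries (dark squares) and bars at the means of 3 libraries. No red point overlaps the dark points of its gene, by the rule that chose them; Cyp1a1 and Unc5a show the widest gaps on this axis.

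Other genes are set side by side in the same way, with the +/+ libraries shared. Slit2 was picked for its p against these +/+ libraries, and its log2 fold was -0.82 ± 0.15 in +/vg, -0.58 ± 0.15 in +/- and -0.48 ± 0.15 in +/12 (limma adjusted p = 0.131, 0.485 and 0.898). For Slit2, +/vg differed from +/- by -0.24 ± 0.15 and from +/12 by -0.34 ± 0.15, neither called. Hhex had a log2 fold of 0.93 ± 0.19 in +/vg, -0.17 ± 0.19 in +/- and 0.54 ± 0.19 in +/12 against +/+. Cyp1a1 had 2.06 ± 0.44 in +/vg, 0.28 ± 0.44 in +/- and 1.37 ± 0.44 in +/12. Clstn1 had 0.94 ± 0.15 in +/vg, 1.10 ± 0.15 in +/- and 0.97 ± 0.15 in +/12. In the same order Hmox1 had 0.80 ± 0.17, 0.65 ± 0.17 and 0.69 ± 0.17, and Nfkbia 1.33 ± 0.23, 0.87 ± 0.23 and 0.88 ± 0.23. Pramef8 had 0.87 ± 0.13, 0.72 ± 0.13 and 0.29 ± 0.13. For Clstn1, Hmox1, Nfkbia and Pramef8, +/vg differed from +/- by -0.15 ± 0.15, 0.15 ± 0.17, 0.45 ± 0.23 and 0.15 ± 0.13. Hey1 had -0.59 ± 0.32 in +/vg, -0.49 ± 0.32 in +/- and -0.82 ± 0.32 in +/12 against +/+, and +/vg differed from +/- by -0.10 ± 0.32. Calcrl had -0.48 ± 0.12 in +/vg, -0.05 ± 0.12 in +/- and -0.16 ± 0.12 in +/12, with a direct difference of +/vg from +/- of -0.43 ± 0.12 (limma adjusted p = 0.478). These direct differences also reuse the +/vg libraries, so they are not separate support for genes picked in them. In either direct comparison limma called 0 of the 10550 genes. At the unadjusted threshold, 509 were higher (4.82 percent) and 382 lower (3.62 percent) in +/vg than in +/-, while 138 were higher (1.31 percent) and 99 lower (0.938 percent) in +/vg than in +/12.

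The 22 genes called higher in 12/- than in +/12 (0.209 percent of all genes, from libraries outside the 6) were read in +/vg embryos. In +/vg against +/+, 13 had a positive fold and 9 a negative one, the median was 0.09, and 3 were higher at an unadjusted p under 0.05 (4.39 percent of all genes were). Adm, the vasodilator peptide adrenomedullin, had 1.42, 1.65 and 1.00 scaled FPKM in the +/vg libraries and 0.841, 0.964 and 1.11 in the +/+ libraries, a log2 fold of 0.25 ± 0.24 where 12/- against +/12 had 2.64 ± 0.24. Bnip3, a mitophagy receptor, had 6.98, 7.64 and 3.70 scaled FPKM in the +/vg libraries and 3.14, 3.28 and 4.72 in the +/+ libraries (log2 fold 0.56 ± 0.30). Cav1, the main protein of caveolae, had 4.48, 4.54 and 7.01 scaled FPKM in the +/vg libraries and 2.79, 4.11 and 3.98 in the +/+ libraries (log2 fold 0.44 ± 0.25). Ndufa4l2 was at 1.08, 0.540 and 0 scaled FPKM in the +/vg libraries and 0.240, 0.268 and 0.153 in the +/+ libraries. Its fold of 0.27 ± 0.25 thus rests on low values, and it was tested because the filter takes the mean over all 16 libraries. The secreted Stc2 had a fold of 0.39 ± 0.26. The 3 that reached the unadjusted threshold were the repressor Bhlhe40 (3.04, 2.91 and 2.13 scaled FPKM in +/vg libraries, 1.32, 1.06 and 1.25 in +/+ libraries), the matrix protein Sparcl1 (8.76, 7.13 and 10.7 in +/vg libraries, 6.35, 4.40 and 4.19 in +/+ libraries) and the glycolytic enzyme Pfkp (3.44, 4.09 and 4.40 in +/vg libraries, 2.62, 2.59 and 2.40 in +/+ libraries). Their log2 folds were 0.73 ± 0.24, 0.72 ± 0.20 and 0.49 ± 0.15. Over the 32 tested hypoxia and glycolysis genes the median was 0.00, with 16 folds of either sign and 3 higher at an unadjusted p under 0.05. Ndrg1 had the largest fold of that list, 0.84 ± 0.40, with 6.13, 4.37 and 2.75 scaled FPKM in the +/vg libraries and 1.45, 2.22 and 2.15 in the +/+ libraries.

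Growth and metabolic lists had small median folds. Of 26 genes of DNA replication and mitosis, 20 had a negative fold and 6 a positive one, with a median of -0.10 and 3 lower at an unadjusted p under 0.05 (3.13 percent of all genes were). Rrm2, the small subunit of ribonucleotide reductase, had 35.7, 38.6 and 41.6 scaled FPKM in the +/vg libraries and 45.7, 70.2 and 67.7 in the +/+ libraries (log2 fold -0.63 ± 0.23, limma adjusted p = 0.583). Ccnb2, a mitotic cyclin, had 29.3, 28.9 and 31.9 scaled FPKM in the +/vg libraries and 50.8, 31.6 and 43.5 in the +/+ libraries (log2 fold -0.44 ± 0.17). The G1 cyclin Ccnd2 had 10.3, 11.7 and 10.8 scaled FPKM in the +/vg libraries and 12.9, 17.5 and 14.9 in the +/+ libraries (log2 fold -0.43 ± 0.12, limma adjusted p = 0.405). Mki67, the proliferation marker, did not overlap but was close, at 41.6, 43.6 and 42.7 scaled FPKM in the +/vg libraries and 44.3, 47.1 and 46.9 in the +/+ libraries.

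Cholesterol synthesis genes had 18 of 21 positive folds, a median of 0.21 and 2 members higher at an unadjusted p under 0.05 (4.39 percent of all genes were). Insig1, the sterol sensor of the endoplasmic reticulum, had 14.0, 13.5 and 17.1 scaled FPKM in the +/vg libraries and 12.7, 10.0 and 7.70 in the +/+ libraries (log2 fold 0.53 ± 0.21). Mvk, a kinase of the mevalonate pathway, had 7.63, 8.65 and 8.79 scaled FPKM in the +/vg libraries and 6.08, 4.99 and 6.43 in the +/+ libraries (log2 fold 0.46 ± 0.18). Of 75 cytosolic ribosomal protein genes 9 were higher at that threshold (4.39 percent of all genes) and 0 lower (3.13 percent), and their many processed copies in the genome make single estimates uncertain. Of 75 oxidative phosphorylation genes 24 had a positive fold, with a median of -0.12 and 3 lower at that threshold, a share near the 3.13 percent of all genes. Of 10 shear-responsive genes tested, 2 were higher at an unadjusted p under 0.05 (4.39 percent of all genes) and 0 lower. Their median was 0.31, and it ran from 0.13 to 0.43 over the alternatives run. Edn1 of that list, the vasoconstrictor endothelin, had 35.3, 35.2 and 16.2 scaled FPKM in the +/vg libraries and 9.58, 10.7 and 16.2 in the +/+ libraries (log2 fold 1.13 ± 0.37). For Edn1, replicate 3 again stood with the +/+ libraries. Ifitm3, an interferon-inducible membrane protein, had 71.6, 84.7 and 82.2 scaled FPKM in the +/vg libraries and 46.8, 54.9 and 51.7 in the +/+ libraries (log2 fold 0.63 ± 0.24). It was the 1 interferon gene of the 7 tested to reach the unadjusted threshold. Axin2, a target of Wnt signalling, was the 1 of 8 in its list, at 0.53 ± 0.22.

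**Figure D5:**
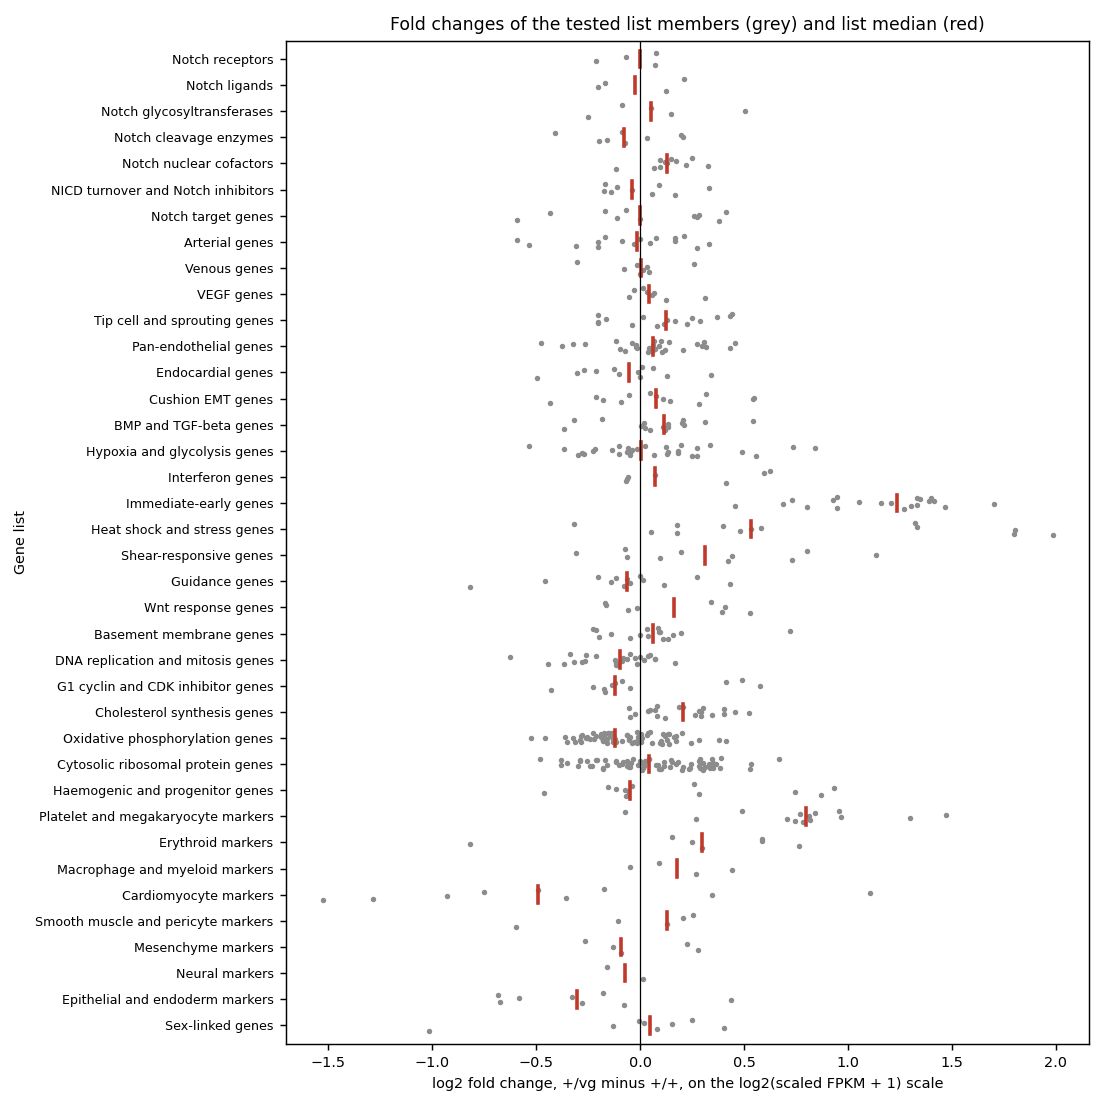
Log2 fold change, +/vg minus +/+, of every tested member of each gene list (grey points) and the list median (red bar), where 0 means equal group means on the log2(scaled FPKM + 1) scale. Immediate-early genes (median 1.24), platelet and megakaryocyte markers (0.80) and heat shock and stress genes (0.53) have the highest medians, and cardiomyocyte markers (-0.49) the lowest.

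Markers of other cell types of the embryo were read in the same libraries. Platelet and megakaryocyte markers, whose cells also carry CD31, had 13 of 14 positive folds and a median of 0.80, with 1 of 14 higher at an unadjusted p under 0.05 (4.39 percent of all genes) and 7 of 14 that did not overlap (7.3 percent of all genes). Their summed level was 824, 786 and 1618 scaled FPKM in the +/vg libraries and 301, 920 and 736 in the +/+ libraries, so the sums overlapped and the highest was that of +/vg replicate 3. Pf4, the platelet chemokine that makes most of this sum, had 666, 634 and 1290 scaled FPKM in +/vg libraries and 225, 772 and 614 in +/+ libraries. Gp9, a subunit of the platelet adhesion receptor, had 25.4, 20.6 and 46.3 scaled FPKM in the +/vg libraries and 7.41, 15.9 and 11.7 in the +/+ libraries, and Tubb1, the platelet tubulin, had a log2 fold of 0.96 ± 0.39. Gfi1b, a factor of red cell and megakaryocyte progenitors, had 7.84, 4.96 and 5.92 scaled FPKM in the +/vg libraries and 3.11, 3.55 and 2.202 in the +/+ libraries (log2 fold 0.87 ± 0.39). Against the same +/+ libraries the platelet list median was 0.41 in +/- and 1.02 in +/12. The direct difference of +/vg from +/12 had a platelet list median of -0.23. In bulk RNA of this kind, more cells of a type and more RNA per cell cannot be told apart. The part of platelet RNA in the immediate-early and stress values was not tested.

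The summed markers of the remaining cell types overlapped between the groups. Erythroid markers summed to 127, 117 and 153 scaled FPKM in the +/vg libraries and 123, 115 and 133 in the +/+ libraries. Myeloid markers summed to between 10.4 and 14.2 in the +/vg libraries and between 9.90 and 14.3 in the +/+ libraries, and the macrophage genes C1qa and Emr1 were listed at 0 in all 3 +/vg libraries. Cardiomyocyte markers summed to 49.5, 46.2 and 55.9 scaled FPKM in the +/vg libraries and 89.3, 29.8 and 95.2 in the +/+ libraries, with Nkx2-5 listed at 0 in 2 libraries of each group. Of the 9 cardiomyocyte markers tested, 7 had a negative fold and 2 a positive one. Against the same +/+ libraries their median was -0.49 in +/vg, -0.83 in +/- and -0.98 in +/12. Myl2, a ventricular myosin light chain, had 3.34, 0 and 1.63 scaled FPKM in the +/vg libraries and 10.1, 1.81 and 7.76 in the +/+ libraries, which overlapped (log2 fold -1.53 ± 0.53). Tnni3 of the same list had 0.984, 1.96 and 2.97 scaled FPKM in the +/vg libraries and 0.482, 0.328 and 0.185 in the +/+ libraries. Its libraries did not overlap, and the log2 fold was 1.11 ± 0.59. Smooth muscle markers summed to 21.3, 17.8 and 15.2 scaled FPKM in the +/vg libraries and 20.3, 16.8 and 21.01 in the +/+ libraries. Among them Acta2, smooth muscle actin, had 7.15, 6.56 and 5.59 scaled FPKM in the +/vg libraries and 9.16, 9.90 and 11.7 in the +/+ libraries, which did not overlap (log2 fold -0.60 ± 0.23). Anpep of the same list did not overlap in the other direction, at 1.26, 1.44 and 1.77 scaled FPKM in the +/vg libraries and 1.21, 1.10 and 0.936 in the +/+ libraries (log2 fold 0.25 ± 0.19). Of the 5 smooth muscle markers tested, 3 had a positive fold and 2 a negative one. Mesenchyme markers summed to 24.1, 24.6 and 49.8 in the +/vg libraries and 29.5, 25.1 and 34.0 in the +/+ libraries, and epithelial markers to 22.3, 35.3 and 8.67 against 47.5, 18.9 and 33.9. Neural markers summed to between 26.3 and 27.8 in the +/vg libraries and between 24.9 and 30.3 in the +/+ libraries, most of it from Nes, which endothelial cells also express.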

How the data were processed

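RNA of CD31-sorted endothelial cells was measured in 16 tagmentation libraries, per the labels' protocols. The submitters' processing notes name TopHat2 2.0.9 as the aligner and mm9 as the build. The authors deposited FPKM values per RefSeq transcript in the cufflinks layout, per the file headers. No source used here gives the quantifier's version, the read length or the strandedness. The deposited coverage values are read depth per transcript, and coverage divided by FPKM gave the aligned gigabases of a library. No counting interval is given, since whole reads were not recovered. Precision is limited most in 2 shallow libraries of other genotypes, at 0.189 and 0.262 gigabases.

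Transcript FPKM was summed per symbol (Python 3.11.15, pandas 2.3.3). A symbol was dropped where any library gave one of its transcripts a status other than OK (211 symbols). Testing took genes whose mean FPKM over all 16 libraries reached 1 (10550, of which 341 have no transcript of 300 nt). A tested gene can therefore lie below 1 in the 6 libraries compared. Libraries were divided by a median-ratio factor over 8610 genes. Values log2(scaled FPKM + 1) entered limma 3.58.1 (R 4.3.3; lmFit, eBayes with trend, two-sided), with all 16 libraries in 6 groups, 10 residual degrees of freedom and Benjamini-Hochberg adjustment over all genes tested. The pseudocount of 1 understates folds of low genes. The steps were checked on simulated data. Figures were drawn with matplotlib 3.10.9.

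The comparison, the 38 gene lists (678 of 679 entries matched, 5 through synonyms) and the tests were chosen with earlier results of these data known. Named by rule were the Notch receptors, main ligands and targets, the 10 genes of smallest p in each direction with non-overlapping libraries (without predicted and short genes), the extreme members of each list and the 6 genes of largest fold in 12/- against +/12. All other genes named were chosen after their values were seen. Alternatives covered scaling, pseudocount, filters, libraries, moderation, weights, library number and each replicate left out.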

Additional observations from a re-analysis of the deposited data

How the results depend on the processing

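Results were recomputed under up to 24 alternatives (22 or 23 for some, where a gene or a group dropped out), 23 of them planned and 1, without the 2 libraries whose Xist or Y-linked genes were near 0, chosen after seeing the data, as were the immediate-early and stress counts. The count of 0 called genes became 1 with no filter, 1 with the 6 libraries alone, 7 with high library numbers only (Hspb1 and 6 genes with a transcript under 300 nt) and 3 with array weights (Ppap2c, Pramef8 and Spryd4). Leaving out a replicate gave between 0 and 3 (1 without +/vg replicate 2, 3 without +/+ replicate 1). The 793 genes at an unadjusted p under 0.05 became 1438 with no filter, 465 at a mean FPKM of at least 5, 504 with high numbers only, and 619 to 1057 with a replicate left out. For +/vg against +/- the count of 0 became 1 with no filter, 5 with high numbers only and 1 without +/vg replicate 2. For +/vg against +/12 it became 1 with no filter, with the number covariate, without +/vg replicate 2 and without +/+ replicate 3. The stress count of 8 was 5 at a mean FPKM of at least 5 and 4 to 8 with a replicate left out. The median of the 22 genes was -0.016 at a mean FPKM of at least 5, where fewer of them were tested. The Notch1 log2 fold ran from -0.036 to 0.16 with a replicate left out and was negative without +/+ replicate 3. Signs turned for Hey2 (-0.0153 without scaling, -0.000516 with upper-quartile scaling, -0.0192 at a pseudocount of 0.1, -0.000307 without the shallow libraries, -0.18 without +/vg replicate 1, -0.10 without +/+ replicate 3, up to 0.17 without +/vg replicate 3), Notch4 (-0.036 with the covariate, -0.021 without +/+ replicate 1, up to 0.19 without +/+ replicate 2), Jag2 (-0.00127 with the covariate) and Dll1 (-0.023 without +/vg replicate 1, up to 0.33 without +/vg replicate 2). The causes were not tested. The other genes followed kept their sign, as did the medians of the immediate-early and stress lists, and 85 of 911 list medians under alternatives changed sign. No paired analysis was possible because the labels give no replicate numbers. With 3 libraries a group, the 95% interval had a median half-width of 0.42 (quartiles 0.33 and 0.55). A fold smaller than the half-width of its own gene could not be told from 0.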
